A study of Mus musculus with 2 samples.

Results

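Interferon-stimulated genes (ISGs) were followed across the cell types of the mouse parotid gland (PG) with and without irradiation. They are a list of 41 genes that were looked up by symbol among the 48825 features shared by both count matrices, and all 41 were found. By role the list holds 4 transcription factors, 4 nucleic acid sensors, 5 genes of the OAS family, 9 antiviral effectors, 2 genes of the ubiquitin-like ISG15 system, 10 interferon-inducible GTPases and 7 other ISGs.

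Interferons are secreted proteins that warn cells of infection. Type I interferons and IFN-γ bind separate receptors, whose JAK kinases activate STAT proteins. Complexes with STAT2 and IRF9 bind interferon-stimulated response elements (ISREs), whereas the IFN-γ signal acts through gamma-activated sites (GAS). The induced proteins block viral entry, translation and assembly, and raised ISG levels are a known feature of salivary glands in Sjögren's disease.

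The data were 2 single-cell RNA-seq libraries from PG of female C3H mice with a WT genotype. In the IR library the mice had received 6 Gy per day to the head and neck for 5 days, 30 Gy in total, at 6 to 10 weeks of age, and glands were collected 10 months later, at about 1 year of age. The control library came from untreated mice of about the same age. Each library pooled the glands of 2 mice, so each condition was 1 library, no difference between conditions could be tested, and every count of genes past 1.5-fold describes these libraries and not the conditions.

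After cells with under 200 genes or over 5% mitochondrial UMIs were left out, 3378 of 5550 control barcodes and 5286 of 7793 IR barcodes remained, with medians of 2908 and 2462 UMIs per cell. The libraries shared 12 barcodes. Cells fell into 20 named classes, and every marker of a class was read in it except Kcne1 in striated duct cells of both libraries and Klra4 in NK cells of control. This is no test of the names, since classes were named from these markers and any UMI counted as read. All 9 acinar markers were also read in B-cells of both libraries. Amy1, a marker used to name acinar cells (Amy1+), gave 211711 UMIs there in control and 168188 in IR. Etv1+ cells gave 479235 and 262129, so Amy1 was read in both classes. These are raw totals and do not rank the classes. Etv1+ cells held 7586190 and 4774546 UMIs in all, against 2964823 and 2712412 in acinar cells. The study reports Amy1 in both classes, with the higher level in acinar cells. Levels are UMIs per 1000000 UMIs of a class (CPM), counted without 67 abundant secretory, mitochondrial, haemoglobin and rRNA-like features. These took 41.3% of control UMIs and 30% of IR UMIs. Tags came from 3′ ends, so levels are not divided by gene length. All intervals are exact 95% intervals and cover counting error only.

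RefSeq promoters (GRCm38.p6), from 250 bases before to 50 bases after the start, were found for 31 of the 41 genes. An ISRE-type motif, GAAA and GAAA with NN between them, or TTTC and TTTC with NN between them for the other strand, stood in 20 of the 31 (64.5%), against 3.99% of the 27025 genes in the same table. A GAS-type motif, TTCNNNGAA, which reads the same on both strands, stood in 10 (32.3%), against 9.55% of all genes. Both were found in 7 and neither in 8. Of 30 ISRE-type matches, 21 lay within 150 bases before the start. Usp18, Dhx58, Gbp4, Rtp4, Ifi27l2a, Mx2, Zbp1, Oas2, Mx1 and Iigp1 were not in the table. A match is a run of letters and not a measured binding site.

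The promoters of 6 genes are printed as examples with motif matches in capitals. They were picked among genes with a match and do not stand for the ISGs named in the cell-type results. Irf7, which is named in many classes, had neither motif in its promoter. Isg15, the ubiquitin-like modifier, lies at chr4:156200769-156201068 on the minus strand and has overlapping ISRE-type matches starting 78, 72 and 66 bases before the start. Ifit1, which binds foreign RNA, lies at chr19:34640639-34640938 on the plus strand with ISRE-type matches at 104 and 85 bases. Bst2, which tethers budding virus to the cell surface, lies at chr8:71537423-71537722 on the minus strand, where a GAS-type match at 136 bases overlaps an ISRE-type match at 130 bases, and a second ISRE-type match starts at 124 bases. Gbp2, a guanylate-binding GTPase, lies at chr3:142620413-142620712 on the plus strand with an ISRE-type match at 59 bases. Igtp, an immunity-related GTPase, lies at chr11:58199306-58199605 on the plus strand with a GAS-type match at 45 bases and an ISRE-type match at 34 bases. Irf1, a transcription factor induced by IFN-γ, lies at chr11:53769764-53770063 on the plus strand with a GAS-type match at 90 bases and no ISRE-type match.
Isg15: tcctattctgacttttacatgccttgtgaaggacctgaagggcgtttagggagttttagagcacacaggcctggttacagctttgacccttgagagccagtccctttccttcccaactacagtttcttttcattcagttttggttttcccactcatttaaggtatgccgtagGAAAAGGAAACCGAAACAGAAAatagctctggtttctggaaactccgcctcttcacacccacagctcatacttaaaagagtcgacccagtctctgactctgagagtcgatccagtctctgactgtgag
Ifit1: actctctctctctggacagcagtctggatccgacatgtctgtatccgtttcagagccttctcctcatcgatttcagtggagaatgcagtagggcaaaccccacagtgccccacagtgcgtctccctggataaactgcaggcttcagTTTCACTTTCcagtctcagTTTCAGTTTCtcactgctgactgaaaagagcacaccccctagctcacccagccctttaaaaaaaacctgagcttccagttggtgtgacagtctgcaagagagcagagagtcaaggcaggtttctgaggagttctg
Bst2: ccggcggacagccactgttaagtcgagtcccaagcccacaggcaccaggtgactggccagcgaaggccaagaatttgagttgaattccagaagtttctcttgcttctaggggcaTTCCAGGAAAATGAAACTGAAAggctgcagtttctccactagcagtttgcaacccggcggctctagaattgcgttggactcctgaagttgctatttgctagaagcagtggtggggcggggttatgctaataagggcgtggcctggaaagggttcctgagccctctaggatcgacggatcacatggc
Gbp2: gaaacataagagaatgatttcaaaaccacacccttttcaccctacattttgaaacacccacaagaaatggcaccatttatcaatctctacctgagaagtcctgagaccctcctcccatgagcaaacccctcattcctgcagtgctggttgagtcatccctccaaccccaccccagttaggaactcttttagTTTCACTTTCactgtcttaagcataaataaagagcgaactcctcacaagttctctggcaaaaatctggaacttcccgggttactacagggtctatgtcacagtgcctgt
Igtp: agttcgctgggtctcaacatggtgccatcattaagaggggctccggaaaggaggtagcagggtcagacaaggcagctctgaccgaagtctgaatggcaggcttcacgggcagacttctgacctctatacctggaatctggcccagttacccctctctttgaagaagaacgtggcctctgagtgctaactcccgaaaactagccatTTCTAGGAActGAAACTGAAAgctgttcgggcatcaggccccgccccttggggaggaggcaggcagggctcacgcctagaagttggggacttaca
Irf1: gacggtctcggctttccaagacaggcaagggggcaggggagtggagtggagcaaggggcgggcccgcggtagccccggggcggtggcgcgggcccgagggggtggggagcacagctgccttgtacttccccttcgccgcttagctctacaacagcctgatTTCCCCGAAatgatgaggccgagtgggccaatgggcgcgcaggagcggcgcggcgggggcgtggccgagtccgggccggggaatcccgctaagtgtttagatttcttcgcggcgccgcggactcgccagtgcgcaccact

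Of the 41 genes, 22 lay in 9 runs of neighbours on the genome. Gbp5, Gbp7, Gbp3 and Gbp2 lie together on chromosome 3 (142493978 to 142638008), and Ifit2, Ifit3 and Ifit1 on chromosome 19 (34550694 to 34650009). Counts of some members are uncertain because of near copies. Of the 50-base stretches in the last 500 bases of Oas1a, 56.1% also occur in Oas1g. The shared part was 19.9% for Trim30a, 14.9% for Ifit3, 14.2% for Gbp4 and 14% for Ifitm3. Igtp and Irgm2 overlap on the same strand, as do Irf9 with Rnf31, Gbp4 with Gbp8 and Gbp9, Ifi47 with Olfr56, Gbp7 with Gm43802 and Rtp4 with Gm45338, and their reads may be split or lost.

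All 41 genes gave UMIs in kept cells, 27120 in control and 24134 in IR. Ifi27l2a, which encodes a small hydrophobic membrane protein, held 48.6% of them in control and 32.8% in IR, so sums are given with and without it. The fewest UMIs belonged to Oas2 (21 and 31), Oas3 (31 and 27), Cmpk2 (42 and 34) and Mx1 (33 and 52). Ratios were read where a gene had at least 20 UMIs in a class over both libraries, which held for 268 pairs of gene and class. Of these, 60 were at least 1.5-fold higher in IR, against 18.6% of such pairs over all genes, and 67 at least 1.5-fold lower, against 10.1%. Without Ifi27l2a it was 60 higher and 49 lower.

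ISG transcripts were most frequent in the endothelium (Pecam1+). Of 17 classes ranked, those with at least 15 cells in each library apart from red blood cells, endothelial cells had the highest level of 23 of the 41 genes in control and of 18 in IR. Plasmacytoid and Cd209a+ dendritic cells (18 control cells) led for 5 genes in control, MECs (19 control cells) for 4 and macrophages for 3. In MECs 1 control cell held 48.9% of the control ISG UMIs, so some of these leads rest on few UMIs. Stromal cells led for 13 genes in IR, where 1 cell held most of their ISG UMIs. The leading class was the same in both libraries for 15 genes. How often each class leads over all genes was not counted, so these counts do not show how ISGs differ from other genes.

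**Figure D1:**
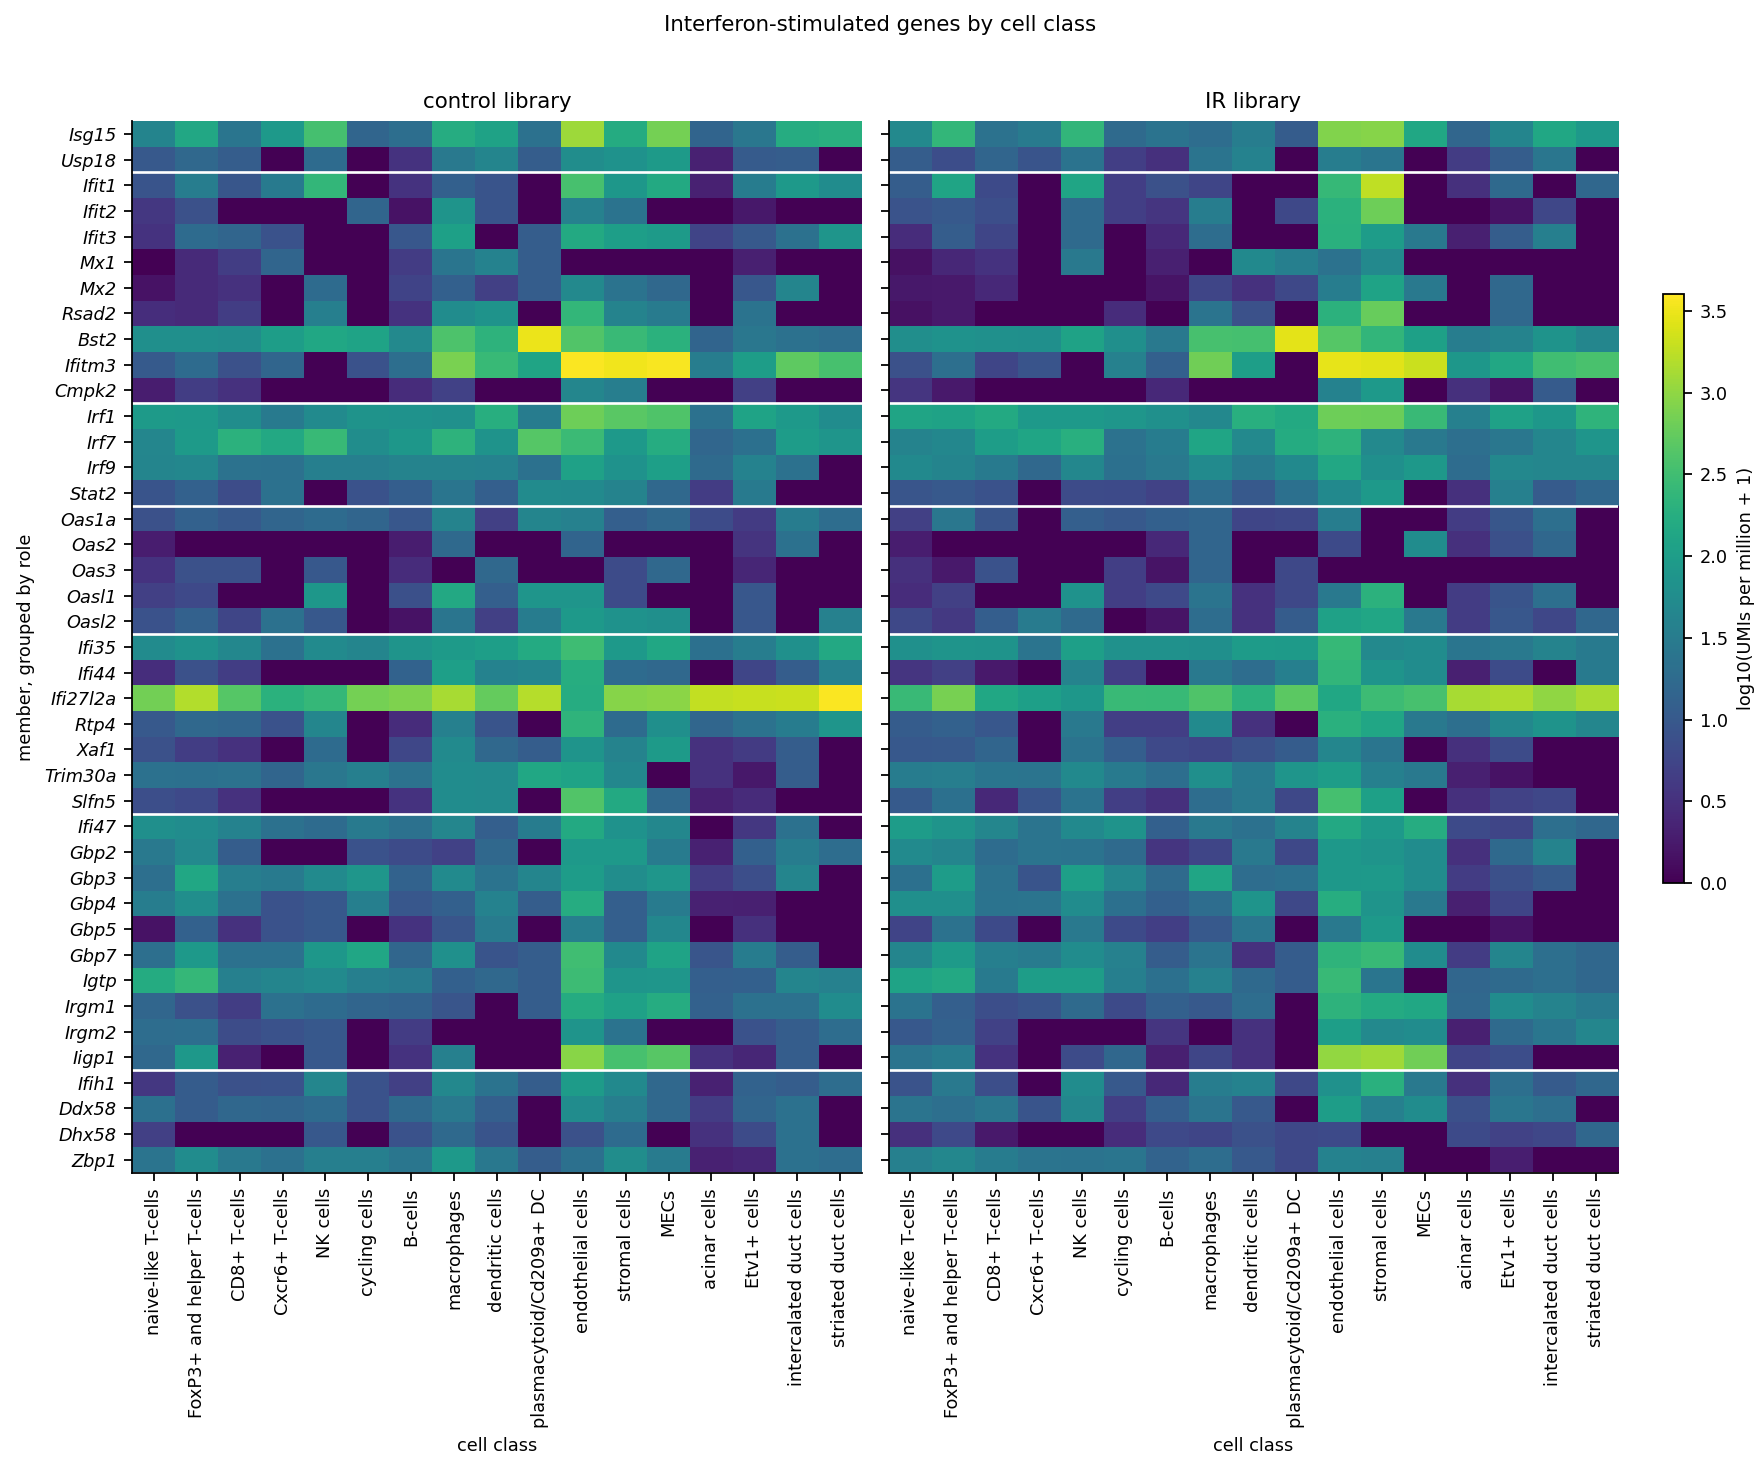
Level of each of the 41 genes (rows, grouped by role) in each class ranked (columns) of the control and the IR library, as log10 of CPM plus 1. The endothelial column is bright in most rows of both panels, whereas Ifi27l2a is bright in most columns.

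Summed over the 41 genes, endothelial cells had 11487 and 10278 CPM in control and IR. MECs had 8155 and 4612 CPM and stromal cells 7154 and 11503. In control the endothelial interval lay above those of all other classes ranked, while those of MECs and stromal cells overlapped. Plasmacytoid and Cd209a+ dendritic cells had 6044 and 4129.9 CPM. Lymphocytes were lower, at 1553 and 1309 in naive-like T-cells and 1402 and 709 in B-cells. Neutrophils, not ranked, had 15798 CPM from 3 control cells. Acinar cells had 2078 and 1692, but 214 and 338 without Ifi27l2a, the lowest sums of the classes named here.

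**Figure D2:**
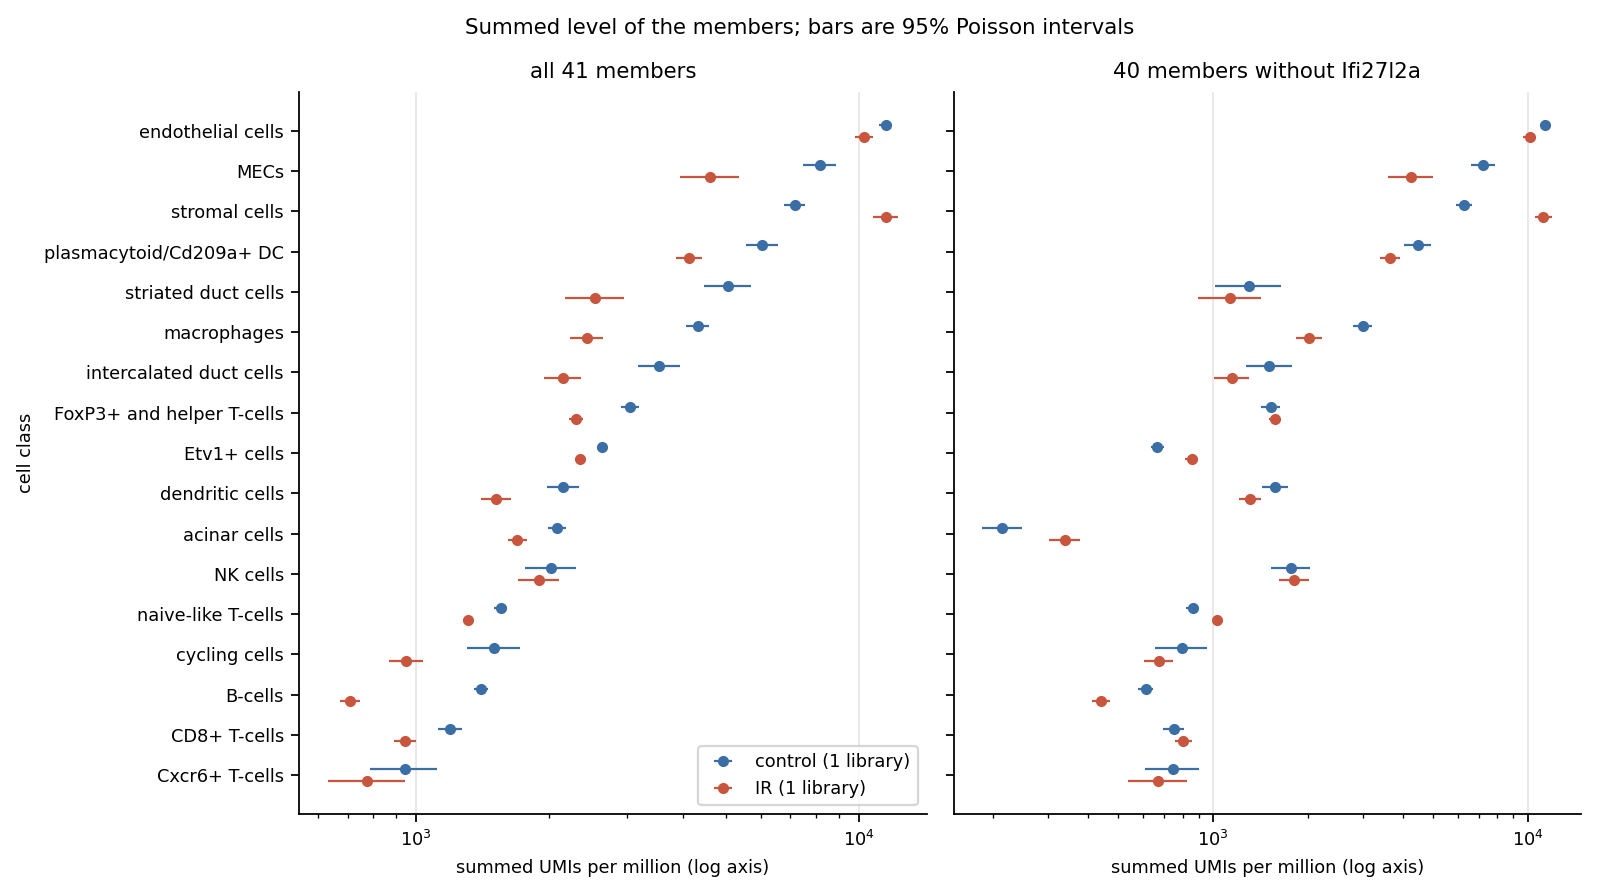
Summed CPM (log axis) of all 41 genes (left) and of the other 40 without Ifi27l2a (right) in each class ranked; points are the control and the IR library and bars are 95% Poisson intervals. Of the classes plotted, endothelial cells lie highest in control at 11487 CPM, and acinar cells drop from 2078 to 214 between the panels.

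Most endothelial cells carried several ISGs. After each cell was thinned to 1000 UMIs, 69 of 79 control cells (87.3%, interval 78 to 93.8%) had UMIs of at least 3 of the 41 genes. In IR it was 36 of 44 (81.8%, interval 67.3 to 91.8%). These intervals overlap. The share was 10.8% and 11.5% in naive-like T-cells, 4.86% and 1.97% in B-cells, and 2.52% and 8.6% in Etv1+ cells. The order of the Etv1+ shares held for at least 2 genes, at 10.1% and 19.5%. It turned to 1.49% and 1.12% after thinning to 500 UMIs, 1.26% and 0.452% for at least 5 genes and 51.7% and 49.4% without thinning.

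**Figure D3:**
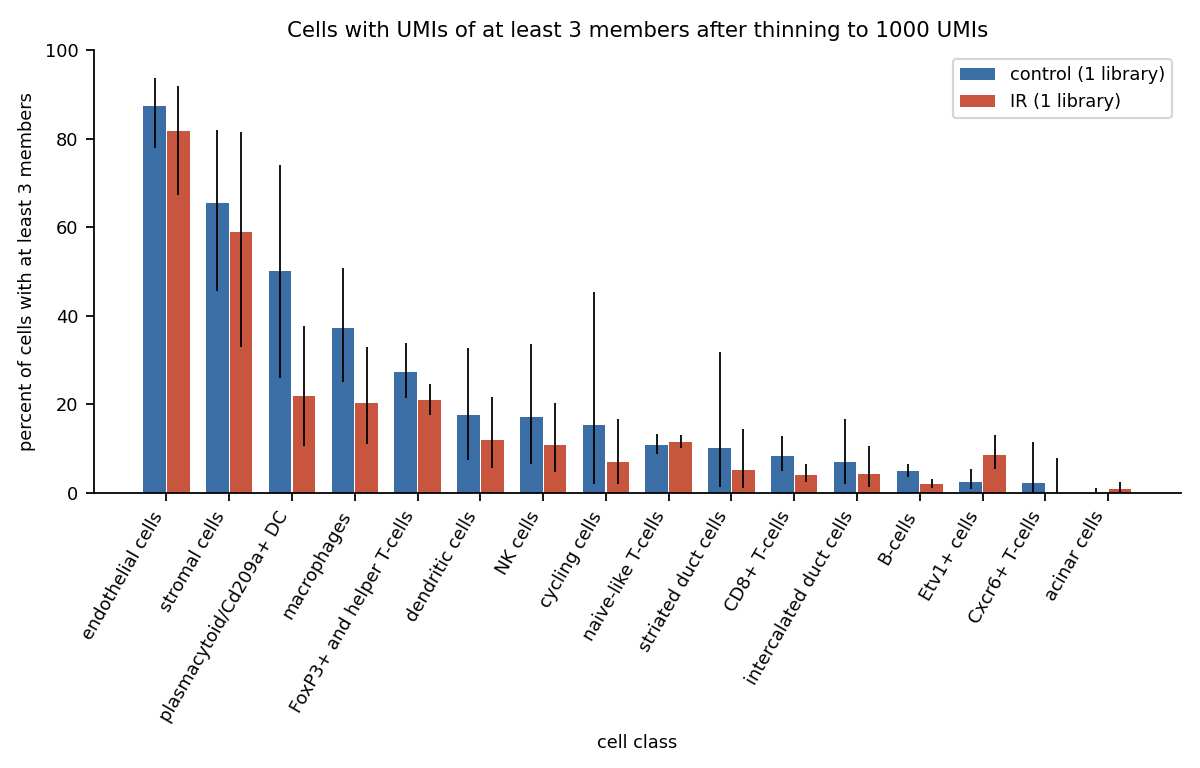
Percent of cells with UMIs of at least 3 of the 41 genes after thinning every cell to 1000 UMIs, by cell class, in the control and the IR library; bars start at 0 and lines are 95% Clopper-Pearson intervals. Endothelial cells stand highest, at 87.3% and 81.8%.

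Endothelial levels of most ISGs were close in both libraries. The class joined clusters of 46 control and 17 IR cells and of 34 and 27, and the part of this mix was not tested. Of 34 genes read, 2 were at least 1.5-fold higher in IR, against 13.3% of all genes in the class, and 3 were at least 1.5-fold lower, against 13.7%. The median log2 ratio of IR to control was -0.18 for ISGs and 0.01 for all genes. Without the cell richest in ISG UMIs in each library, 7 genes were lower in place of 3. The counts changed with the processing, with 7 higher and 3 lower without the cells of highest doublet score and 6 higher and 3 lower without integration. It was 2 higher and 8 lower both with TMM factors and with up to 10% mitochondrial UMIs. The shares over all genes were not counted under any of these alternatives. Stromal markers in this class summed to 793 and 1639.7 CPM, with Col1a2, Dcn, Pdgfra and Lum at 0 in control and 7 of 7 markers read in IR. T-cell markers summed to 30.8 and 352 CPM (5 of 7, with Cd3e and Trac at 0, and 7 of 7 read) and acinar markers to 43859 and 27247, and the part of these markers was not tested.

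Ifitm3, which blocks viral fusion in endosomes, was the most frequent endothelial ISG. It gave 1093 and 537 UMIs in 78 control and 44 IR cells, or 3738 and 2955 CPM (ratio 0.79, interval 0.712 to 0.877). Isg15 gave 340 and 151 UMIs, or 1163 and 831 CPM (ratio 0.715, interval 0.586 to 0.868). Both were lower in IR by more than counting error.

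Iigp1, a GTPase that attacks pathogen vacuoles, was at 903 and 1023 CPM (ratio 1.13, interval 0.935 to 1.37). Irf1 was at 646 and 633 (ratio 0.979, interval 0.77 to 1.24) and Bst2 at 421 and 440.2 (ratio 1.05, interval 0.78 to 1.4). Slfn5, a schlafen protein, was at 414 and 341 (ratio 0.824, interval 0.597 to 1.13). The intervals of these 4 ratios reach 1. Over the 10 GTPases the endothelial sums were 2281 and 2344 CPM (ratio 1.03, interval 0.908 to 1.16).

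Neighbouring Ifit genes differed in the endothelium. Ifit2 had 11 and 36 UMIs (ratio 5.27, interval 2.62 to 11.5), 15 of the IR UMIs in 1 cell. Ifit1 had 104 and 46 UMIs (ratio 0.712, interval 0.492 to 1.02). Oasl1, an OAS-like protein, had 22 and 5 UMIs (ratio 0.366, interval 0.108 to 0.99), and Ddx58, the RNA sensor RIG-I, 16 and 18 (ratio 1.81, interval 0.871 to 3.79).

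Naive-like T-cells (Ccr7+Lef1+) were the largest class of IR, with 727 control and 1880 IR cells. The guanylate-binding proteins Gbp2, Gbp4 and Gbp7 were higher in IR. Gbp3 was not past 1.5-fold in either finer cluster given below. Of 31 ISGs read, 11 were at least 1.5-fold higher, against 20.3% of all genes, and 3 lower, against 3.62%. The median gene was itself higher in IR by 0.22 on the log2 scale, and the ISG median was 0.24. Relative to the median gene, 6 ISGs were higher (11.4% of all genes) and 6 lower (7.8%).

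Of the 10 GTPases, 7 were at least 1.5-fold higher in IR naive-like T-cells (20.3% of all genes) and 1 was lower (3.62%). After division by the median gene it was 4 higher (11.4% of all genes) and 2 lower (7.8%). Gbp7 had 41 and 180 UMIs, or 19.6 and 42.5 CPM (ratio 2.16, interval 1.53 to 3.12). Gbp2 was at 27.3 and 52.7 CPM (ratio 1.93, interval 1.44 to 2.63) and Gbp4 at 33 and 61.9 (ratio 1.87, interval 1.43 to 2.48). For these 3 genes the interval lay above the ratio of the median gene, 1.17.

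Ifi47, another interferon-inducible GTPase, was at 60.8 and 95.1 CPM (ratio 1.56, interval 1.28 to 1.92). Gbp5 had 1 and 19 UMIs (ratio 9.37, interval 1.49 to 389). The overlapping genes Igtp and Irgm2 were lower in IR. Igtp was at 163 and 119.7 CPM (ratio 0.733, interval 0.638 to 0.843) and Irgm2 at 18.2 and 8.74 (ratio 0.48, interval 0.297 to 0.775). The GTPase sums were 372 and 452 CPM (ratio 1.21, interval 1.12 to 1.32), an interval that holds the ratio of the median gene.

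Genes of other roles in naive-like T-cells lay on both sides of 1. Irf1 was at 90.5 and 125 CPM (ratio 1.38, interval 1.17 to 1.64). Zbp1, a sensor of Z-form nucleic acids, was at 23.5 and 36.4 (ratio 1.55, interval 1.12 to 2.18). Ifih1, the RNA sensor MDA5, had 6 and 31 UMIs (ratio 2.55, interval 1.05 to 7.47). Isg15 was at 40.7 and 48.2 CPM (ratio 1.18, interval 0.914 to 1.54) and Irf7, the amplifier of type I interferon, at 43.6 and 39.9 (ratio 0.915, interval 0.705 to 1.19), both with intervals that reach 1. The OAS family, of which 2 genes were read, summed to 21.1 and 13.7 CPM (ratio 0.65, interval 0.432 to 0.984).

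The class joined finer clusters in different proportion, cluster 0 with 596 control and 1023 IR cells and cluster 2 with 120 and 838. In cluster 0 Gbp2 (ratio 1.86, interval 1.33 to 2.64) and Gbp7 (ratio 1.84, interval 1.22 to 2.82) were past 1.5-fold. Gbp4 (ratio 1.46, interval 1.04 to 2.05) and Ifi47 (ratio 1.35, interval 1.07 to 1.72) were not, and their intervals hold the ratio of the median gene there. In cluster 2 all 4 were past 1.5-fold, with ratios of 2.7 for Gbp2, 3.0 for Gbp7, 2.09 for Gbp4 and 2.38 for Ifi47, and intervals above the ratio of the median gene. Irf1 gave 0.952 and 1.41, and Igtp 0.956 and 0.458, further from 1 in cluster 2. Gbp3 gave 1.18 (interval 0.75 to 1.88) and 1.3 (interval 0.506 to 4.26), and both intervals reach 1.

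FoxP3+ and helper T-cells (215 control and 548 IR cells) had more Ifit1 and Isg15 in IR. Of 26 ISGs read, 8 were at least 1.5-fold higher, against 18.7% of all genes, and 6 lower, against 7.18%. The median log2 ratio was 0.10 for ISGs and 0.15 for all genes. After division by the median gene, 7 were higher (13% of all genes) and 7 lower (11.1%).

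Ifit1 had 19 and 166 UMIs, in 8 control and 51 IR cells, or 32.7 and 125 CPM (ratio 3.83, interval 2.38 to 6.53). The ratio was 4.28 without the cell with most Ifit1 UMIs in each library. Isg15 had 83 and 319 UMIs, or 143 and 241 CPM (ratio 1.69, interval 1.32 to 2.17). In IR the same cells often held both, since after thinning 25 of 37 cells with Ifit1 (67.6%) also had Isg15, against 53 of 499 without Ifit1 (10.6%). In control it was 0 of 4 cells.

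Iigp1 was lower in these cells in IR, at 82.5 and 30.9 CPM (ratio 0.375, interval 0.241 to 0.581). Irf7 was at 91.1 and 46 (ratio 0.505, interval 0.344 to 0.744) and Igtp at 253 and 148 (ratio 0.585, interval 0.47 to 0.729). The GTPase sums were 758 and 588 CPM (ratio 0.776, interval 0.69 to 0.874), lower in IR.

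In CD8+ T-cells (218 control and 395 IR cells) Irf1 and Irf7 went opposite ways. Irf1 had 49 and 193 UMIs, or 56.4 and 151 CPM (ratio 2.67, interval 1.94 to 3.73), and Irf7 was at 203 and 98.4 (ratio 0.485, interval 0.383 to 0.613). Xaf1, a proapoptotic partner of XIAP, had 2 and 18 UMIs and met the limit for reading a ratio only through IR. Of 19 ISGs read, 5 were at least 1.5-fold higher in IR (20.5% of all genes) and 4 lower (5.94%), with medians of 0.21 for ISGs and 0.18 for all genes on the log2 scale. Relative to the median gene, 4 were higher (12.5%) and 4 lower (11.2%).

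B-cells (838 control and 836 IR cells) had lower ISG levels in IR. Of 24 ISGs read, 0 were at least 1.5-fold higher, against 14.2% of all genes, and 10 lower, against 5.58%. The median log2 ratio was -0.47 for ISGs and 0.13 for all genes, and 19 ISGs lay below the median gene. After division by the median gene, 0 were higher (10.2% of all genes) and 12 lower (8.62%).

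Irf7 in B-cells had 167 and 59 UMIs, or 79.7 and 31.1 CPM (ratio 0.39, interval 0.285 to 0.527). Stat2, a subunit of the ISRE-binding complex, had 23 and 8 UMIs (ratio 0.384, interval 0.148 to 0.888). Irf1 was closer, at 67.3 and 62.7 CPM (ratio 0.931, interval 0.723 to 1.2). All 4 transcription factors had ratios below 1. T-cell markers in B-cells summed to 165 and 326 CPM, and their part was not tested.

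Bst2 in B-cells was at 49.2 and 27.9 CPM (ratio 0.568, interval 0.40 to 0.798). Ifi44, a cytoplasmic protein of the type I response, had 26 UMIs in 16 control cells and 0 in IR. Ifit3 had 18 and 3 UMIs (ratio 0.184, interval 0.0347 to 0.63). Zbp1 had 53 and 25 UMIs (ratio 0.52, interval 0.31 to 0.852) and Ifi47 44 and 22 (ratio 0.552, interval 0.315 to 0.94). Isg15 did not share this direction, with 40 and 43 UMIs (ratio 1.19, interval 0.753 to 1.87), 17 of the IR UMIs in 1 cell.

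**Figure D4:**
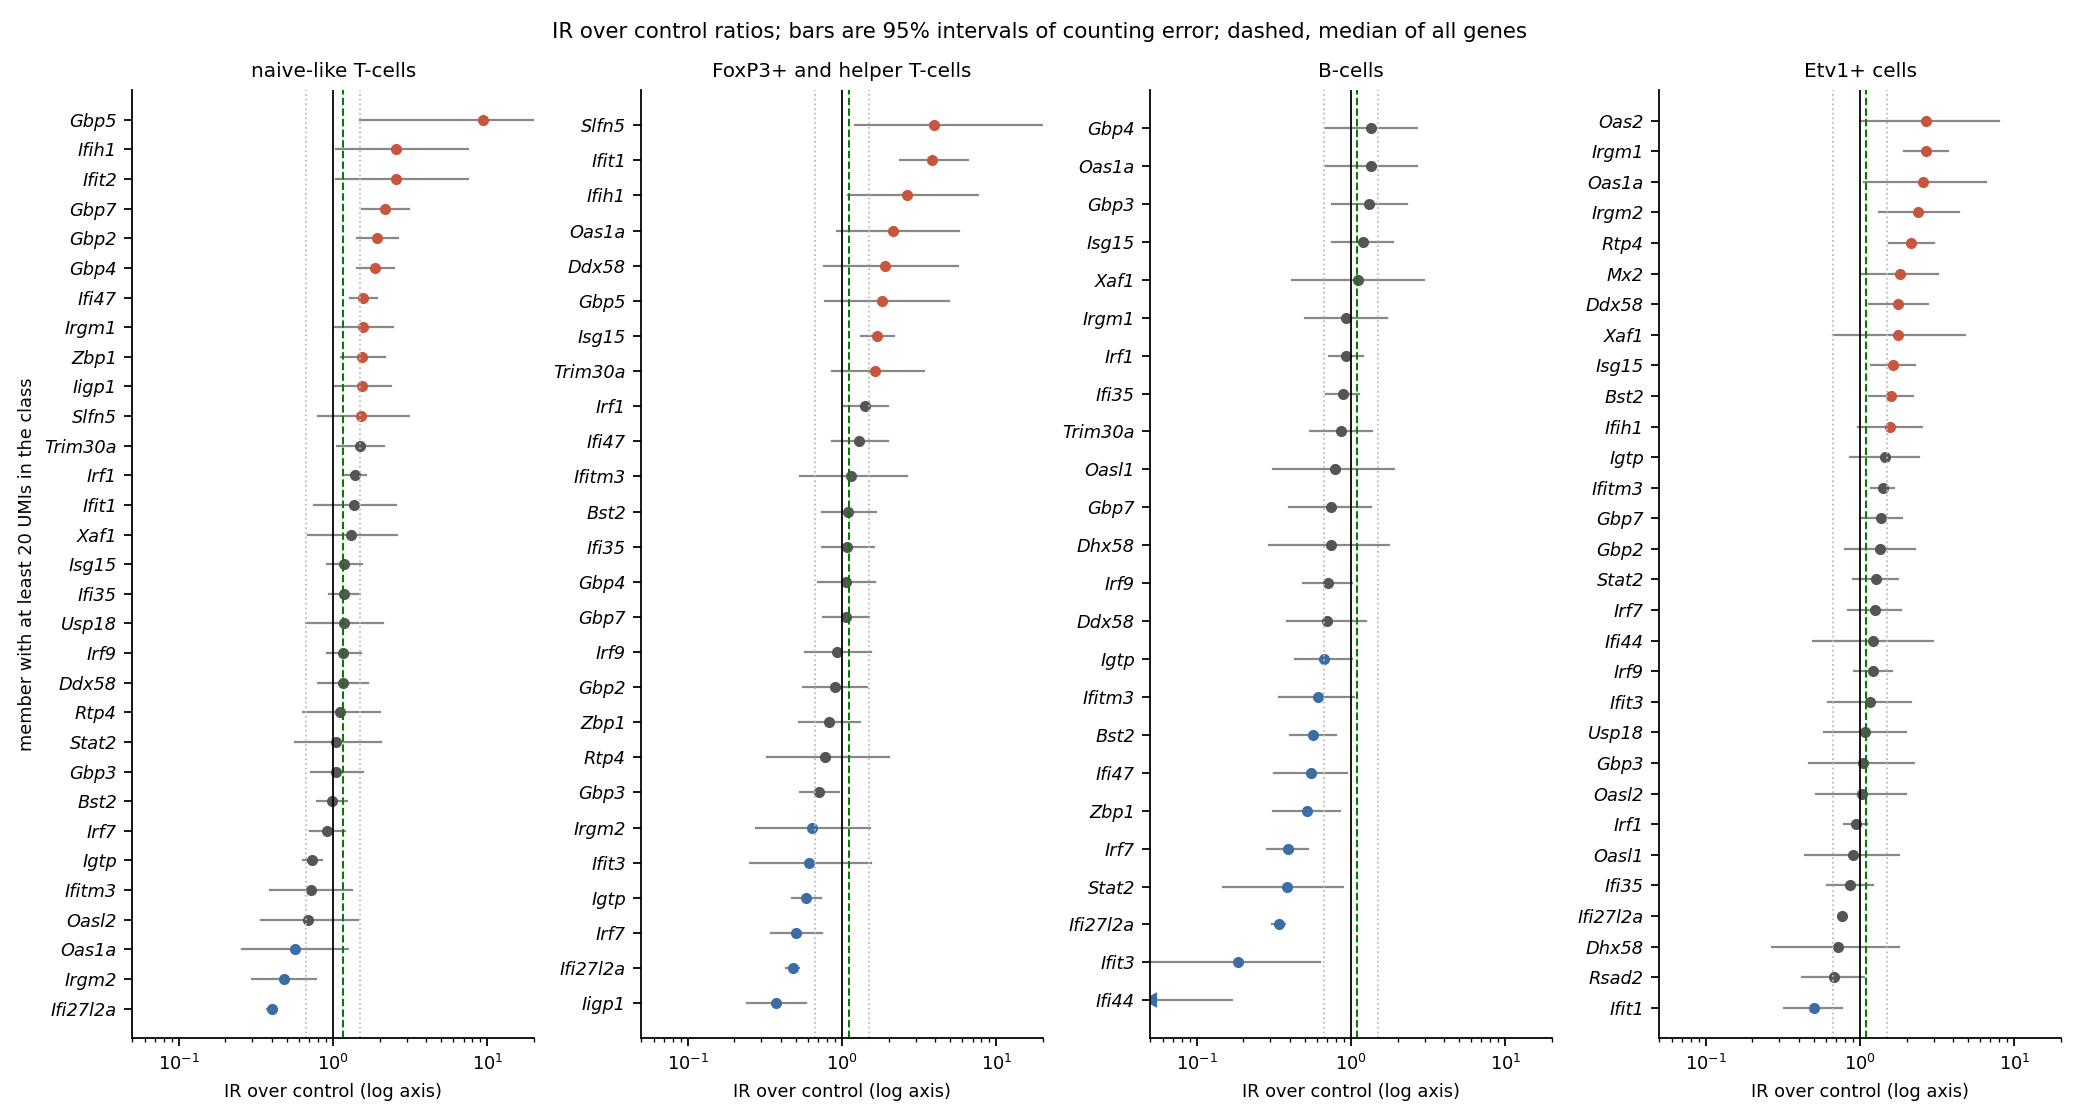
IR over control ratio (log axis) of each ISG with at least 20 UMIs in naive-like T-cells, FoxP3+ and helper T-cells, B-cells and Etv1+ cells; bars are 95% intervals cut at the axis limits, the dashed line is the median of all genes and dotted lines mark 1.5-fold. Red points are at least 1.5-fold higher and blue points at least 1.5-fold lower in IR. B-cells have 10 lower and 0 higher genes, and the arrow at the edge is Ifi44, with 0 UMIs in IR.

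Macrophages (Adgre1+, 143 control and 118 IR cells) had fewer UMIs of antiviral ISGs in IR. Of 17 ISGs read, 1 was at least 1.5-fold higher, against 15.3% of all genes, and 10 lower, against 17.3%. The median log2 ratio was -0.69 for ISGs and -0.01 for all genes. Without the cell richest in ISG UMIs in each library 6 were lower, and the share over all genes was not counted there. Endothelial markers in this class summed to 51.4 and 385 CPM (6 of 7 and 7 of 7 read, Esam at 0 in control). B-cell markers summed to 59.3 and 367 CPM and T-cell markers to 245 and 519.9, and the part of these markers was not tested.

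Isg15 in macrophages had 42 and 4 UMIs in 21 control and 4 IR cells (ratio 0.112, interval 0.0291 to 0.308). Oasl1 had 37 and 5 UMIs (ratio 0.159, interval 0.0487 to 0.405) and Ifit3 28 and 4 (ratio 0.168, interval 0.0428 to 0.48). In control 1 cell gave 14 of the Oasl1 UMIs, and another gave 17 of the Ifit3 UMIs. Gbp3, a guanylate-binding GTPase, was the gene past 1.5-fold higher, with 13 and 28 UMIs (ratio 2.53, interval 1.27 to 5.32). Bst2 was at 391 and 353 CPM and Ifitm3 at 743 and 649.8, with intervals that reach 1.

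Dendritic cells (53 control and 112 IR cells) differed by gene. The class joined clusters in different proportion, with 14 control and 49 IR cells (median 715 UMIs), 26 and 47 (5521) and 13 and 16 (6562). The part of this mix was not tested. Of 15 ISGs read, 3 were at least 1.5-fold higher in IR (24.1% of all genes) and 6 lower (11.2%), with medians of -0.35 and, for all genes, 0.17. Relative to the median gene, 2 were higher (16.6%) and 7 lower (16.8%). Rsad2, the antiviral enzyme viperin, had 18 and 3 UMIs (ratio 0.101, interval 0.019 to 0.345), and Isg15 was at 118 and 32.2 CPM (ratio 0.273, interval 0.134 to 0.528). Bst2 was higher in IR, at 213 and 345 (ratio 1.62, interval 1.18 to 2.24), and Ifitm3 lower, at 267 and 103 (ratio 0.388, interval 0.261 to 0.573).

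Plasmacytoid dendritic cells are known producers of type I interferon and carry Bst2 on their surface. The plasmacytoid and Cd209a+ class held 18 control and 41 IR cells, and Bst2 was read in every cell. It gave 293 and 570 UMIs, or 3091 and 2857 CPM (ratio 0.924, interval 0.801 to 1.07). Irf7 was at 454 and 165 (ratio 0.365, interval 0.224 to 0.588), with 19 of 43 control UMIs in 1 cell, and Irf1 had 3 and 30 UMIs (ratio 4.75, interval 1.48 to 24.3). Of 6 ISGs read, 1 was higher (20.4% of all genes) and 4 lower (14.2%).

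Etv1+ cells, an epithelial class rich in acinar transcripts, had more GTPase CPM in IR. Of 30 ISGs read, 11 were at least 1.5-fold higher, against 14.7% of all genes, and 1 lower, against 6.71%. The median log2 ratio was 0.39 for ISGs and 0.12 for all genes. After division by the median gene, 9 were higher (10.4% of all genes) and 3 lower (10.6%). Depth differed, with 269 control and 267 IR cells of 23595 and 5617 median UMIs, and among cells with at least 10000 UMIs 6 were higher and 3 lower, against 13% and 8.9% of all genes in those cells. T-cell markers in Etv1+ cells summed to 18.3 and 78.8 CPM and endothelial markers to 8.11 and 62, and the part of depth and of these markers was not tested.

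Irgm1, an immunity-related GTPase that acts in autophagy, had 59 and 109 UMIs in Etv1+ cells, or 20.8 and 55.4 CPM (ratio 2.66, interval 1.92 to 3.72). Irgm2 had 20 and 33 UMIs (ratio 2.38, interval 1.33 to 4.38), and Rtp4, a receptor transporter protein, was at 21.5 and 46.3 CPM (ratio 2.15, interval 1.54 to 3.03). Of 6 GTPases read, 2 were at least 1.5-fold higher (14.7% of all genes) and 0 lower (6.71%). All 6 had ratios above 1, with 1.04 as the lowest, where the median gene was at 1.09. Over the 10 GTPases the sums were 95.9 and 169 CPM (ratio 1.77, interval 1.5 to 2.08).

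Ddx58 in Etv1+ cells was at 14.1 and 24.9 CPM (ratio 1.77, interval 1.14 to 2.75) and Isg15 at 26.1 and 42.7 (ratio 1.64, interval 1.18 to 2.27). Ifit1 had 89 and 31 UMIs (ratio 0.502, interval 0.323 to 0.764). That direction rested on 1 control cell with 72 Ifit1 UMIs, since the ratio was 1.69 without the top cells. The same cell held 57 of 64 control UMIs of Rsad2, whose ratio went from 0.676 to 3.93.

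Acinar cells (382 control and 378 IR cells) had few ISG UMIs apart from Ifi27l2a. Of 11 ISGs read, 3 were at least 1.5-fold higher in IR, against 21.1% of all genes, and 0 lower, against 6.76%. The medians were 0.36 for ISGs and 0.19 for all genes on the log2 scale. Relative to the median gene, 3 were higher (13.7%) and 1 lower (12.4%). With cells gated on markers 2 were higher and 4 lower, and the shares over all genes were not counted there. Ifitm3 had 29 and 71 UMIs in 24 control and 37 IR cells (ratio 2.42, interval 1.55 to 3.87), and Bst2 12 and 30 UMIs in 12 and 24 cells (ratio 2.47, interval 1.23 to 5.3). T-cell markers in acinar cells summed to 152 and 351 CPM and B-cell markers to 49 and 127, and their part was not tested.

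Few ISGs could be read in the ducts. In intercalated duct cells (Dcpp1-3+) it was 4, 0 of them higher (12.4% of all genes) and 2 lower (29.9%), with the median gene itself at -0.23 on the log2 scale. Ifitm3 was at 509.8 and 314 CPM there (ratio 0.615, interval 0.417 to 0.914). In striated duct cells (Klk1+) Ifitm3 was at 353 and 368 (ratio 1.04, interval 0.551 to 2.0).

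Stromal cells (Col1a1+, 30 control and 17 IR cells) had most of their IR ISG UMIs in 1 cell. Of 16 ISGs read, 8 were at least 1.5-fold higher in IR, against 20.7% of all genes, and 1 lower, against 24.4%. An IR cell of 26032 UMIs held 624 of the 952 ISG UMIs (65.5%) and 143 of 147 Ifit1 UMIs. Without the top cells the summed ratio was 0.894 in place of 1.61, and 3 genes were higher. The share over all genes was not counted there. Iigp1 was at 350.1 and 1220.3 CPM (ratio 3.49, interval 2.52 to 4.86), with a ratio of 3.09 without its top cells. Endothelial markers in stromal cells summed to 90.3 and 568 CPM (5 of 7 read in each, Cdh5 and Egfl7 at 0 in control and Flt1 and Esam in IR), and their part was not tested.

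In MECs (Acta2+Krt14+, 19 control and 25 IR cells) 1 control cell held 48.9% of the control ISG UMIs. Ifitm3 was at 3712 and 2016 CPM (ratio 0.543, interval 0.412 to 0.708), with 113 of its control UMIs in 1 cell. Isg15 had 46 and 5 UMIs, 31 of those in control in 1 cell. Of 5 ISGs read, 0 were higher (16.1% of all genes) and 3 lower (35%), where the median gene was at -0.30 on the log2 scale. Endothelial markers in MECs summed to 609 and 1906 CPM, and their part was not tested.

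Ifi27l2a differed from the other ISGs in where it was read. Among the classes ranked it was highest in striated duct cells in control, at 3758 CPM, and in Etv1+ cells in IR, at 1492. Endothelial cells had 50 and 25 UMIs, or 171 and 138 CPM (ratio 0.804, interval 0.477 to 1.33). Its ratio was below 1 in all 21 classes, unnamed cells included, and in 18 of them it was at least 1.5-fold lower.

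In lymphocytes and myeloid cells Ifi27l2a was much lower in IR. Naive-like T-cells were at 690.2 and 277 CPM (ratio 0.402, interval 0.372 to 0.434). B-cells were at 791 and 269 (ratio 0.339, interval 0.307 to 0.375) and macrophages at 1344 and 404 (ratio 0.301, interval 0.235 to 0.381). The secretory classes differed less, with 1864 and 1354 in acinar cells (ratio 0.726, interval 0.674 to 0.782) and 1967 and 1492 in Etv1+ cells (ratio 0.758, interval 0.725 to 0.793).

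Amy1 UMIs were read in every class, as free RNA gives in droplet data, so Ifi27l2a was also set against Amy1. Acinar cells had 7.9 and 7.31 Ifi27l2a UMIs per 1000 Amy1 UMIs in control and IR, and Etv1+ cells 11.6 and 11.2. B-cells had 131 and 49.1 and naive-like T-cells 150.2 and 60.8, above the acinar proportion in both libraries. Striated duct cells had 118 and 21.8. In left-out barcodes with under 200 genes, Ifi27l2a was at 1807 CPM in control and 1088 in IR. The proportion in free RNA was not measured, and the part of free RNA in these levels was not tested.

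**Figure D5:**
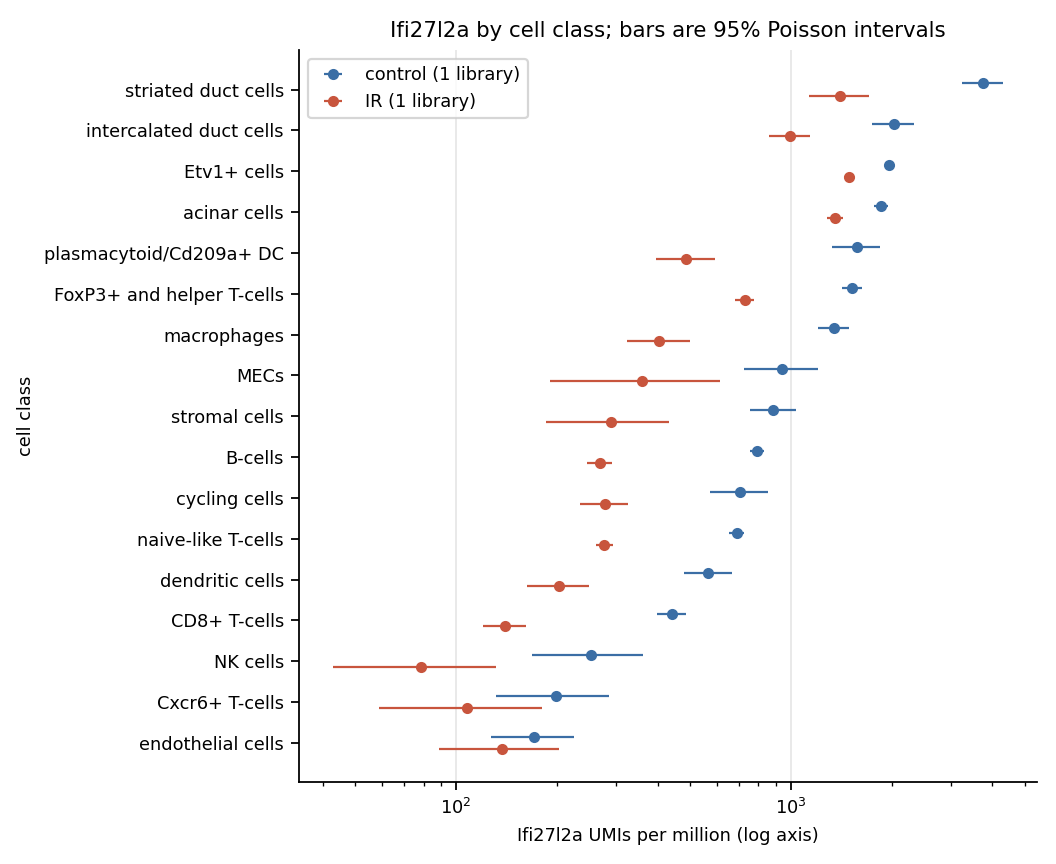
Ifi27l2a level in CPM (log axis) by cell class in the control and the IR library; bars are 95% Poisson intervals. The IR level is the lower in every class plotted, from 3758 and 1399 CPM in striated duct cells to 171 and 138 in endothelial cells, where the intervals overlap.

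Leaving out Ifi27l2a turned the direction of the summed level in several classes. The ratio was 1.2 in naive-like T-cells (0.843 with it), 1.28 in Etv1+ cells (0.891) and 1.58 in acinar cells (0.814). The median gene was at 1.17 in naive-like T-cells, within the interval of the ratio without Ifi27l2a (1.13 to 1.26). It was at 1.09 in Etv1+ and 1.14 in acinar cells, below the intervals there (1.2 to 1.37 and 1.32 to 1.9). The summed ratio stayed below 1 in B-cells (0.722, with it 0.506), macrophages (0.677, with it 0.561) and endothelial cells (0.896, with it 0.895).

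Likeness between ISGs is given as Pearson's r of log levels over the 17 classes of the control library, which share 1 library and differ in depth. Usp18, the protease that removes ISG15, was nearest to Xaf1 (0.91), Isg15 to Ifit1 (0.89) and Rsad2 to Ifih1 (0.86). Each is the highest value of its gene among the ISGs. Usp18 and Xaf1 had only 130 and 95 control UMIs over all classes. Both were highest in MECs, a class of 19 control cells. Ifi27l2a had no near neighbour, with 0.15 for Ifitm3 as its highest value.

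Among the ligands Ifng was the one read most, with 73 and 255 UMIs over all kept cells. In CD8+ T-cells Ifng had 20 and 109 UMIs, or 23 and 85.1 CPM (ratio 3.69, interval 2.28 to 6.28). In NK cells Ifng was at 209 and 241 CPM, the highest level of any class, with 16 of 24 control UMIs in 1 cell. The type I ligands Ifnk and Ifnb1 had few UMIs, 8 and 26 for Ifnk and 0 and 3 for Ifnb1. Ifna1, Ifna2, Ifna4, Ifnl2, Ifnl3 and Ifne had 0 in both libraries, which allows up to 3 UMIs in each.

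Of 5 receptors read in naive-like T-cells, 0 were at least 1.5-fold higher in IR (20.3% of all genes) and 0 lower (3.62%). Ifnar1, a chain of the type I receptor, was at 80.5 and 82.4 CPM (ratio 1.02, interval 0.849 to 1.24). Ifngr1, a chain of the IFN-γ receptor, was at 754 and 675 (ratio 0.895, interval 0.841 to 0.952), lower in IR by more than counting error. The median gene of the class was at 1.17. Socs1, an inhibitor of JAK kinases, was higher in IR, at 20.1 and 42.3 (ratio 2.1, interval 1.49 to 3.01). Tap1, the peptide transporter of antigen presentation, was at 50.3 and 83.1 (ratio 1.65, interval 1.33 to 2.08) and Psmb9, an immunoproteasome subunit, at 101 and 157 (ratio 1.56, interval 1.33 to 1.83).

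Counted over 48 other genes of the pathway, without near copies, 34 could be read in naive-like T-cells, 8 of them at least 1.5-fold higher in IR and 1 lower. In B-cells 3 of 32 were higher and 4 lower, and in Etv1+ cells 8 of 33 higher and 3 lower. The shares over all genes were 20.3% higher and 3.62% lower in naive-like T-cells, 14.2% and 5.58% in B-cells, and 14.7% and 6.71% in Etv1+ cells.

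Ly6a, an interferon-induced surface protein, was higher in IR in both secretory classes. In Etv1+ cells Ly6a was at 77.2 and 276 CPM (ratio 3.57, interval 3.05 to 4.2) and in acinar cells at 71.3 and 154 (ratio 2.16, interval 1.6 to 2.95). In B-cells Ly6a was lower, at 56.3 and 22.6 (ratio 0.402, interval 0.277 to 0.574). Of 13 classes where Ly6a could be read, it was at least 1.5-fold higher in 3 and lower in 6. Stromal cells, its highest class in both libraries, were at 1796 and 858 CPM.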

How the data were processed

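Dissociated PG cells were captured by droplet, and the authors deposited 1 matrix of raw UMI counts per gene and barcode for each library. The submitters' processing notes name Cell Ranger 3.0.1, Seurat 3 and mm10. The total was 22707876 UMIs in control and 23890757 in IR, 19068309 and 20348028 of them in kept cells. The members and all gene lists were chosen with earlier results of these data known. Of the genes in the pathway list, 1 is counted and not named here.

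Cells with at least 200 genes and at most 5% mitochondrial UMIs were integrated by anchors in Seurat 5.3.0 (R 4.3.3) on 2000 variable genes without the ISGs, with 30 components and a resolution of 0.3, and mixed clusters were split again (20 components, resolution 0.8), a choice made after seeing them. Classes were named from fixed markers, at least 3 of them enriched, so they were rebuilt here and may differ from those of the study. Scrublet in scanpy 1.11.5 called 32 and 1 cells and so did not work on the IR library. Doublets were kept, and an alternative left out the 203 and 317 cells of highest score.

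UMIs were summed by class and scaled to CPM without 67 abundant features. Levels carry exact Poisson, shares Clopper-Pearson and ratios exact conditional binomial 95% intervals (scipy 1.17.1). A ratio was read where control and IR together gave a gene 20 or more UMIs in the class, and it was counted past 1.5-fold. A gene near this limit can pass it through 1 library alone, and its direction then follows from the limit. The text may name the 5 highest and 5 lowest ratios of a class, genes with at least 100 UMIs in it and examples of a role. On simulated counts, 96% of intervals held the true ratio for 9471 genes of naive-like T-cells and 96.4% for 3884 genes of endothelial cells. The intervals do not cover UMIs that sit in a single cell, as most ISG UMIs did in stromal cells of IR. Alternatives changed the scaling (TMM factors from edgeR 4.0.16), filters, clustering, UMI limit and thinning. Clusters of the alternatives took the class that most of their cells had in the reported clustering, a rule set after seeing the data.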

Additional observations from a re-analysis of the deposited data

Results flagged for a closer look

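Ratios of Bst2 and Ifitm3 lay on opposite sides of 1 in different classes, and the differences between classes were not tested. Bst2 was higher in the IR library in dendritic cells (ratio 1.62, interval 1.18 to 2.24) and lower in B-cells (ratio 0.568, interval 0.40 to 0.798). Ifitm3 was higher in IR in acinar cells (ratio 2.42, interval 1.55 to 3.87). It was lower in dendritic cells (ratio 0.388, interval 0.261 to 0.573), MECs (ratio 0.543, interval 0.412 to 0.708) and intercalated duct cells (ratio 0.615, interval 0.417 to 0.914). The median gene was at 0.815 in MECs, 0.852 in intercalated duct, 1.12 in dendritic and 1.14 in acinar cells. After division by it, Ifitm3 in MECs and intercalated duct cells and Bst2 in dendritic cells were not past 1.5-fold. In MECs a single control cell held 113 Ifitm3 UMIs. The dendritic class joined clusters in different proportion.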

How the results depend on the processing

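The summed ISG ratio stayed below 1 under every alternative run in B-cells (0.464 to 0.722), macrophages (0.504 to 0.677), endothelial cells (0.815 to 0.976), dendritic cells (0.63 to 0.833) and plasmacytoid and Cd209a+ dendritic cells (0.431 to 0.813). The gene with most UMIs was Ifi27l2a in most classes, Ifitm3 in endothelial and stromal cells and Bst2 in plasmacytoid and Cd209a+ dendritic cells. Without that gene the ratio turned above 1 in several classes. It was 1.2 in naive-like T-cells, 1.03 in FoxP3+ and helper T-cells, 1.07 in CD8+ T-cells and 1.16 in all T-cells. The median gene was at 1.17, 1.11, 1.13 and 1.15 in these classes, within the interval of each ratio. Acinar cells had 1.58 and Etv1+ cells 1.28. Under the same change the summed ratio moved to 0.722 in B-cells, 0.677 in macrophages and 2.3 in stromal cells. With edgeR's TMM factors it was 0.737 in naive-like T-cells, 0.703 in FoxP3+ and helper T-cells, 0.749 in all T-cells, 0.464 in B-cells, 0.815 in endothelial, 1.38 in stromal, 0.695 in acinar and 0.79 in Etv1+ cells. Scaled to all UMIs it was 0.90 in acinar and 0.982 in Etv1+ cells, and control levels were 10516 CPM in endothelial cells, 629 in acinar cells and 1543 in all T-cells. With cells of up to 10% mitochondrial UMIs the ratio was 0.82 in endothelial and 0.942 in Etv1+ cells, and the control level of all T-cells 1732. With at least 500 genes per cell it was 0.939 in Etv1+ cells. Without the cells of highest doublet score it was 0.976 in endothelial and 0.94 in Etv1+ cells. With ISGs among the variable genes it was 0.841 in FoxP3+ and helper T-cells and 0.951 in Etv1+ cells, and without integration 0.812 in FoxP3+ and helper T-cells and 0.962 in endothelial cells. With cells gated on markers it was 0.542 in B-cells and 0.756 in acinar cells.

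Pairs of gene and class past 1.5-fold numbered 96 higher and 106 lower with at least 10 UMIs and 29 and 34 with at least 50. With TMM factors they numbered 51 and 82, and past 2-fold there were 31 and 37. The shares over all genes were not counted under these alternatives, so the numbers do not show how ISGs differed from other genes. The share of cells with ISG UMIs in naive-like T-cells of control and IR was 33.2% and 29.2% for 2 genes, 1.41% and 1.03% for 5 genes, 3.16% and 2.71% for 3 genes at 500 UMIs, and 48.8% and 39.5% without thinning. In endothelial cells it was 97.5% in control for 2 genes, 53.2% and 56.8% for 5 genes, 65% and 47.7% at 500 UMIs, and 100% in both libraries without thinning.

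Some alternatives were chosen after seeing the data. Divided by the median gene, the summed ratio was 0.723 in naive-like T-cells, 0.681 in FoxP3+ and helper T-cells, 0.733 in all T-cells, 0.464 in B-cells, 0.712 in acinar cells and 0.819 in Etv1+ cells. Without the cell richest in ISG UMIs in each library it was 0.837 in endothelial cells and turned to 0.894 in stromal cells. Where cells were clustered again, a class was compared if at least 70% of its cells were shared both ways. Summed ratios under all alternatives were worked out only for classes past a minimum of ISG UMIs in each library. MECs (536 and 167 ISG UMIs), intercalated duct cells (333 and 437) and striated duct cells (272 and 172) fell short and gave no value. Beyond the construction of each alternative, the cause of a change was not tested. No paired analysis was possible because each condition was 1 library. Classes of few cells limit the ISGs that can be read, with 4 genes in intercalated and 2 in striated duct cells.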

Other observations

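Cells with UMIs of at least 20 of the 41 ISGs were rare. In control they numbered 23 of 3378 cells, 14 of them endothelial and 4 Etv1+, and in IR 16 of 5286 cells, 8 endothelial and 6 Etv1+. The most were 37 genes in an Etv1+ control cell of 42697 UMIs, led by Ifit1, Rsad2 and Isg15. An IR NK cell had 27 genes with only 4197 UMIs, led by Ifi44, Gbp4 and Irf7.

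Barcodes left out for over 5% mitochondrial UMIs also held ISG UMIs, at 2402 CPM in control and 1974 in IR, beside 2424 and 1694 in kept cells. Barcodes with under 200 genes were at 3223 and 1862.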
